A study of Mus musculus with 8 samples.

Results

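The mesothelial surface genes described here are Prg4 and 9 genes used as markers of the mesothelium, the sheet of flat cells that covers the abdominal organs and the visceral fat pads: Muc16, Msln, Upk3b, Upk1b, Lrrn4, Wt1, Krt19, Gpm6a and Nkain4. They were picked by name, from a microarray study of fat, with the comparison of Abhd15 knockout (KO) and wild-type (WT) mice already known. Prg4 and Muc16 stand first because their signals were low in the KO arrays, so their differences are given below as a description with no test. The other 8 were taken as markers, also with their differences known. All 10 were measured, each by 1 probe set carrying that gene symbol alone, and all 10 passed the filter on low signals, out of 22180 genes measured and 11090 that passed it.

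The study measured RNA in epididymal white adipose tissue (eWAT), the visceral fat pad beside the testis and epididymis, with an Affymetrix array of mouse genes. The mice were 5 Abhd15 KO males and 3 WT males, all on a C57BL/6J background and fed normal chow. Mice of both genotypes were 14 weeks old, went without food overnight and ate chow for 1 h before the fat was frozen, so that both groups are in the refed state. How the Abhd15 gene was disrupted, and whether KO and WT mice were littermates, is not stated in the labels. Each array is 1 mouse, and ABHD15 is a protein of adipocytes.

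The mesothelium is a single layer of cells of mesodermal origin that makes keratins like an epithelium. It lets organs slide past each other, and its free surface carries a slippery coat of glycoproteins and hyaluronan. PRG4, also called lubricin, is a secreted mucin-like glycoprotein best known as the boundary lubricant of joint cartilage. MUC16, whose shed part is the tumour marker CA125, is a very large membrane mucin, and mesothelin, the product of Msln, is a membrane-anchored glycoprotein that binds it. In visceral fat the mesothelium lies on the outside of the pad, and cells expressing the transcription factor WT1 are found in visceral and not in subcutaneous fat.

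Prg4 and Muc16 set themselves apart among the 10 genes, with each of the 5 KO values below the lowest WT value. The other 8 were not: their KO and WT values overlapped, and 6 of them had a slightly higher KO mean. Prg4 signal averaged 6.33 ± 0.179 in KO (log2, SD, n = 5) and 7.63 ± 0.290 in WT (SD, n = 3), a 2.46-fold lower level in KO. Muc16 averaged 4.48 ± 0.167 in KO (SD, n = 5) and 5.33 ± 0.509 in WT (SD, n = 3), a 1.80-fold lower level. The mesothelin gene Msln averaged 5.74 ± 0.246 in KO (SD, n = 5) and 5.48 ± 0.125 in WT (SD, n = 3). In whole tissue, fewer cells of a type and less RNA per cell cannot be told apart.

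The sequences before the start sites are shown for 3 of these genes, 1 that was lower in every KO array (Muc16) and 2 mesothelial markers whose groups overlapped (Upk3b and Lrrn4). They come from RefSeq on build GRCm38.p6, run 5′ to 3′ on the strand of the gene, and reach from 250 bases before the start to 50 bases after it. Of the 10 genes, 4 matched that table (Muc16, Upk3b, Lrrn4 and Gpm6a, the last with 2 windows). Capitals mark a match to any of 7 short motifs searched on both strands. The Muc16 window lies at chr9:18674554-18674853 on the minus strand, that of Upk3b at chr5:136038246-136038545 on the plus strand and that of Lrrn4 at chr2:132880813-132881112 on the minus strand.
Muc16: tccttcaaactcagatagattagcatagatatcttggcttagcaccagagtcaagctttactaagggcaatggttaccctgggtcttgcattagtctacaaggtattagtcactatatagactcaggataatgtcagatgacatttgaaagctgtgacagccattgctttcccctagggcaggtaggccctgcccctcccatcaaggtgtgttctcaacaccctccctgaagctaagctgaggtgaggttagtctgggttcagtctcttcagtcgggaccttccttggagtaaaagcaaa
Upk3b: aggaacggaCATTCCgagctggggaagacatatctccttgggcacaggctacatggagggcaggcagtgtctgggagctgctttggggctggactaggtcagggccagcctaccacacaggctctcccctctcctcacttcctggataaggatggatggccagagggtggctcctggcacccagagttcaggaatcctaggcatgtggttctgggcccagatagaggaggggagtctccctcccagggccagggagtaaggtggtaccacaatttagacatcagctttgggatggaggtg
Lrrn4: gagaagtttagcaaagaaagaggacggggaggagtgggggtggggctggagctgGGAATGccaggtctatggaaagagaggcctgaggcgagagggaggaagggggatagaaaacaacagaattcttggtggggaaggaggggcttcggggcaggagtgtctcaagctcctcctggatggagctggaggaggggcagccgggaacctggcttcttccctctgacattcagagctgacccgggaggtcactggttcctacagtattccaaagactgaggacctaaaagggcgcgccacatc

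The Muc16 window held none of the 7 motifs, which says only that these letters are not in it. The Upk3b and Lrrn4 windows each held GGAATG, the core recognised by TEAD factors, once, at position -241 on the opposite strand in Upk3b and at position -196 on the gene's own strand in Lrrn4, counted from the start site. That motif was in 14.7% of all 32851 windows of this length. The first Gpm6a window held it too, together with the GC box GGGCGG (35.7% of windows), and the second held the TATA box TATAAA (13.6%). The others searched were the CCAAT box CCAAT (37.4%), the AP-1 site TGACTCA (5.20%), the cyclic AMP response element TGACGTCA (1.79%) and the FOXO site GTAAACA (3.65%), and none of them was in a window of these 4 genes. GC content was 46.7% in the Muc16 window, 58.7% in that of Upk3b and 58.0% in that of Lrrn4, against a median of 52.7%.

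Facts about the arrays that bear on these genes are as follows. The adipocyte list, led by Adipoq, Plin1, Fabp4 and Lep, had a mean log2 signal of 10.97 to 11.45 in KO and 11.16 to 11.40 in WT over its 8 measured genes, with log2 differences of -0.30, -0.24, 0.03 and 0.25 for these 4. The filter on low signals lay at 3.61. Abhd15 itself has 2 probe sets, and only the brighter is given. It read 5.77, 6.07, 6.27, 5.60 and 5.75 in KO 1 to KO 5, against 6.36, 6.45 and 6.15 in WT 1 to WT 3. The array labelled KO 3 thus lay inside the WT range, and where the Abhd15 probes lie relative to the disrupted part is not given, so these values do not check the labels. Without KO 3 the log2 difference of Prg4 was -1.27 and that of Muc16 -0.86. Array medians ran from 2.93 to 3.12, and any 2 arrays correlated at 0.962 or higher over all probe sets.

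Some arrays carried transcripts of the neighbouring male tract. The mean over 9 measured genes of epididymal epithelium was 5.39 in KO 4, against 2.13 to 2.53 in the other KO arrays and 1.87 to 2.09 in WT. Of its genes, the lipocalin gene Lcn5 reached 8.56 in KO 4, while its relative Lcn8 was at 1.92 there. The mean of 5 seminal vesicle genes was 1.59 to 1.92 in KO, against 5.33 in WT 1 and 1.85 and 2.16 in the other WT arrays. Its gene Svs2 was at 6.38 in WT 1, while Svs3a was at 1.19 there. A list of 6 sperm and germ cell genes averaged 5.36 in KO 4 and 3.80 to 4.28 in the other KO arrays, against 6.93 in WT 1, 5.61 in WT 2 and 3.64 in WT 3. The sperm nuclear protein genes Prm1, Tnp1 and Tnp2 had log2 differences of -1.24, -1.78 and -1.95, and Odf1, whose probe sets disagree, 0.18, none called. Odf1 read 10.45 to 10.94 across all arrays, so it raised every mean of this list. WT 1 thus stood apart for the seminal vesicle list and KO 4 for the epididymal list. Differences of the 10 mesothelial surface genes without both of these arrays are given below. For the sperm list WT 2 was above KO 4, and WT 2 stays in when WT 1 and KO 4 are left out.

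**Figure D1:**
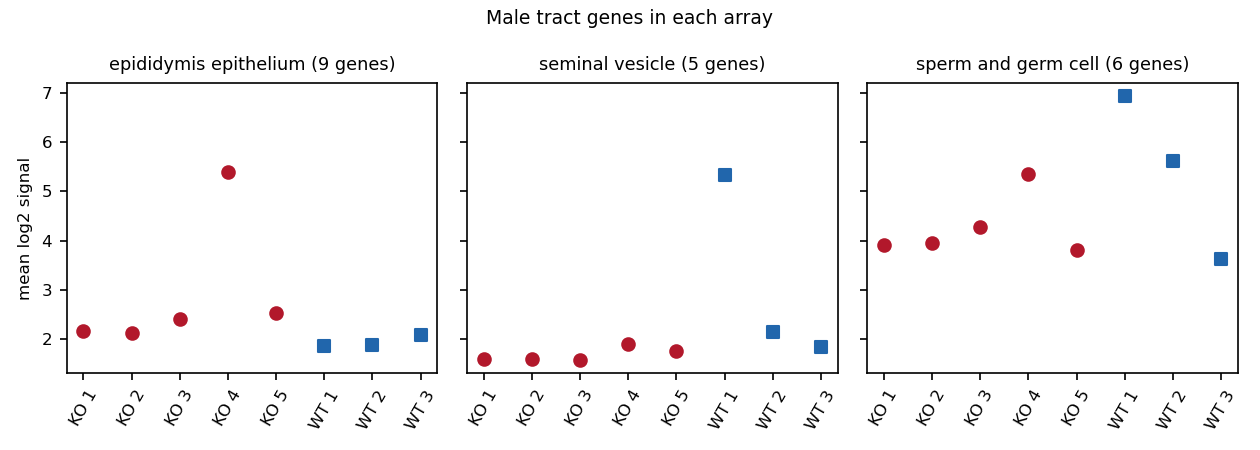
Mean log2 signal (vertical axis) of 9 epididymal, 5 seminal vesicle and 6 sperm and germ cell genes in each array, with KO arrays as red circles and WT arrays as blue squares. KO 4 is high for epididymal genes (5.39), WT 1 for seminal vesicle genes (5.33), and WT 1, WT 2 and KO 4 for sperm genes.

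Across the whole table no gene passed an adjusted p of 0.05 in limma, so 0% of the 11090 tested genes were called. At an unadjusted p under 0.05 there were 1164, or 10.5% (6.46% lower and 4.04% higher in KO). With the replicate number as a block, 2 genes passed and 1997 had an unadjusted p under 0.05. KO and WT values did not overlap for 8.53% of tested genes, made up of 5.54% lower and 2.99% higher in KO. Against that share, 2 of the 10 mesothelial surface genes did not overlap, both lower in KO, but these 2 are the ones whose low KO signals were known when the list was drawn up, so nothing is read from their number.

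Prg4, on chromosome 1, read 6.50, 6.15, 6.24, 6.23 and 6.55 in KO 1 to KO 5, against 7.85, 7.75 and 7.30 in WT 1 to WT 3. All KO arrays lay close together, and the highest of them was 0.75 below the lowest WT array, WT 3. The log2 difference was -1.30 (SE 0.163), and 22 of the 11090 tested genes had a more negative one. Since Prg4 was chosen for its low KO signal, nothing is read from that rank. Leaving out any 1 array gave differences from -1.46 to -1.19, and without WT 1 and KO 4 together it was -1.16.

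Muc16, on chromosome 9, read 4.25, 4.56, 4.53, 4.41 and 4.69 in KO 1 to KO 5, against 5.87, 5.27 and 4.86 in WT 1 to WT 3. The KO arrays were again close together, the WT arrays were spread out, and the gap between the highest KO array and WT 3 was 0.17. The log2 difference was -0.85 (SE 0.210), with 74 tested genes more negative, a rank from which nothing is read either. It was -0.58 without WT 1 and -1.09 without WT 3, so its size rests in part on which WT arrays are included.

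In WT the order of the arrays was the same for Prg4, for Muc16 and for the sperm and germ cell list, with WT 1 highest and WT 3 lowest. KO 4, whose sperm list mean of 5.36 was above the 3.64 of WT 3, had 6.23 for Prg4 and 4.41 for Muc16, below the 7.30 and 4.86 of WT 3. The seminal vesicle list had the same order in WT, with 5.33 in WT 1, 2.16 in WT 2 and 1.85 in WT 3. Its mean in KO 4 was 1.92, between WT 3 and WT 2. KO 4 and WT 3 also differ in genotype, so nothing is read from setting them side by side. Without WT 1 and KO 4, Muc16 differed by -0.56 (SE 0.190) and the groups still did not overlap for either gene. That fit keeps WT 2, whose sperm list mean was 5.61, so it is not a comparison free of male tract transcripts. The part that male tract tissue has in the differences was not tested.

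Mesothelin and the uroplakins are membrane proteins of the mesothelial surface. Msln, on chromosome 17, read 5.74, 6.12, 5.73, 5.66 and 5.43 in KO 1 to KO 5, against 5.61, 5.48 and 5.36 in WT 1 to WT 3. In 4 of 5 KO arrays it was above every WT array, with KO 2 highest, and KO 5 lay within the WT range. The difference was 0.25 on the log2 scale, with a 95% confidence interval of -0.10 to 0.61 (adjusted p = 0.599 in limma). With the replicate number as a block, a fit whose difference rests on the 3 numbers found in both genotypes and not on KO 4 and KO 5, it was 0.38 (unadjusted p = 0.0400, adjusted p = 0.257 in limma). Without KO 5 alone it was 0.33 and the groups did not overlap (unadjusted p = 0.0458, adjusted p = 0.337 in limma).

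Upk3b encodes a uroplakin, a kind of protein first found in the plaques of the bladder lining, and is among the most used markers of mouse mesothelium. It read 7.66, 7.96, 7.83, 7.42 and 7.88 in KO 1 to KO 5, against 7.41, 7.76 and 7.54 in WT 1 to WT 3. Here 3 KO arrays lay above all WT arrays and 2 inside their range. Its log2 difference was 0.18, with an interval of -0.16 to 0.52. Upk1b, a tetraspanin that pairs with other uroplakins in the bladder, read 7.03, 7.51, 7.63, 7.78 and 7.28 in KO 1 to KO 5, against 7.49, 7.66 and 7.48 in WT 1 to WT 3. The KO values fell on both sides of the narrow WT range, with a log2 difference of -0.10 (interval -0.49 to 0.29). Its highest array was KO 4, which also held the highest signal of its relative Upk1a (4.91, against 1.98 to 2.51 in the other KO arrays and 1.81 to 2.16 in WT). Upk1a was named after its values were seen.

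Lrrn4 and Gpm6a encode membrane proteins first studied in neurons, one with leucine-rich repeats and one of the proteolipid family. Lrrn4 read 5.73, 6.12, 5.79, 5.04 and 5.10 in KO 1 to KO 5, against 5.12, 5.67 and 5.15 in WT 1 to WT 3. KO 1 to KO 3 were above all WT arrays and KO 4 and KO 5 below all of them, so the KO group was split, and the log2 difference of 0.25 had an interval of -0.34 to 0.83. In the fit with replicate blocks, which takes no part of the difference from KO 4 and KO 5, it was 0.57 with an interval of 0.27 to 0.87 (unadjusted p = 0.00364, adjusted p = 0.143 in limma). Gpm6a read 7.07, 7.32, 7.17, 7.01 and 6.98 in KO 1 to KO 5, against 7.24, 7.11 and 6.41 in WT 1 to WT 3. WT 3 was the lowest array, and the log2 difference of 0.19 (interval -0.23 to 0.61) was -0.06 without it. Nkain4, whose product belongs to a small family that interacts with the sodium pump, read 5.02, 5.61, 5.15, 5.30 and 5.50 in KO 1 to KO 5, against 5.24, 5.53 and 4.81 in WT 1 to WT 3. Its groups overlapped widely (log2 difference 0.12, interval -0.31 to 0.55), and without WT 3 the difference was -0.07.

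Wt1 encodes a zinc finger transcription factor of the mesothelium and of kidney podocytes. Its signal was 5.57, 6.20, 6.09, 5.95 and 6.05 in KO 1 to KO 5, against 5.26, 6.17 and 6.16 in WT 1 to WT 3. WT 1 was the lowest array, and the log2 difference of 0.11 (interval -0.40 to 0.62) became -0.19 without it. Krt19, a keratin of simple epithelia, read 4.55, 4.57, 4.93, 4.26 and 5.39 in KO 1 to KO 5, against 4.50, 4.65 and 5.11 in WT 1 to WT 3. Both its highest and its lowest array were KO arrays, and its log2 difference was -0.01 (interval -0.57 to 0.54), or 0.02 with each array centred on its median.

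**Figure D2:**
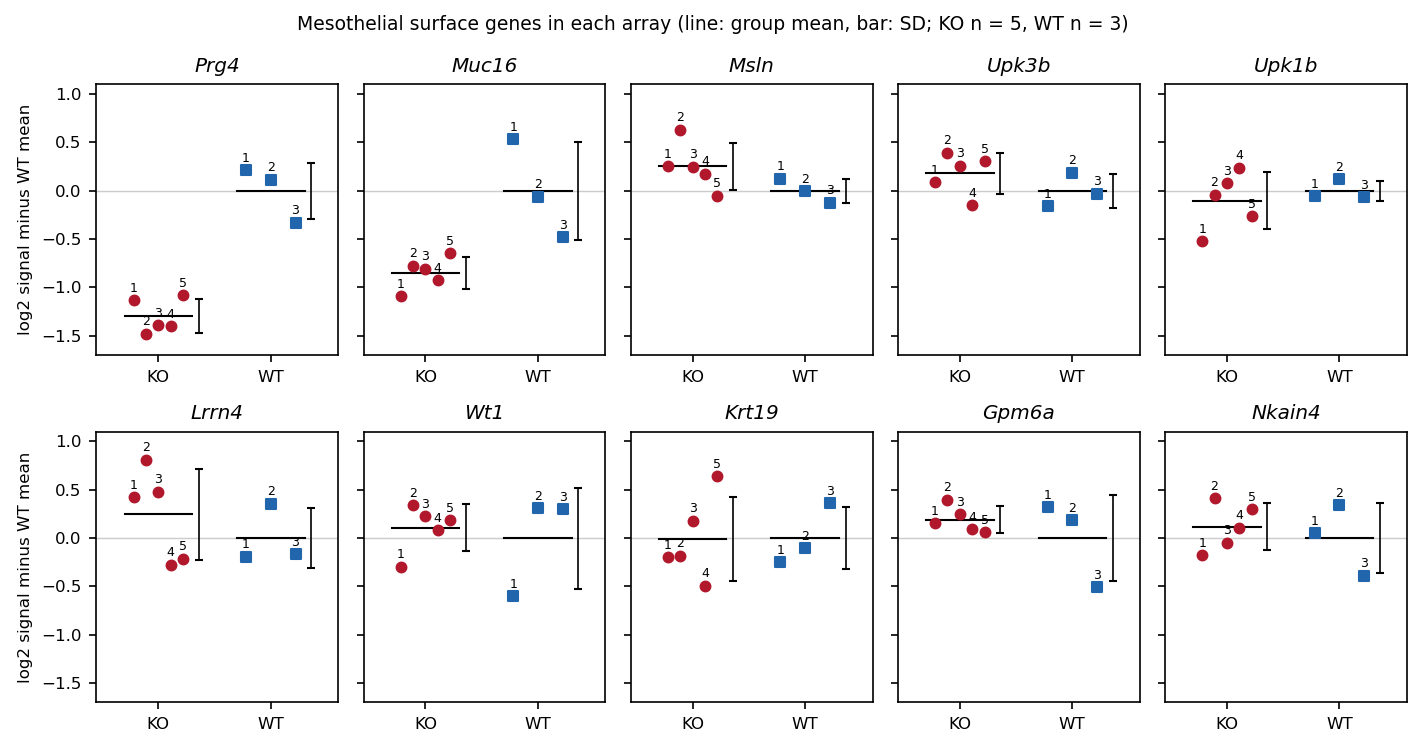
Log2 signal minus the WT mean of each gene (vertical axis, the same in all panels) for the 10 genes, with KO arrays as red circles, WT arrays as blue squares, replicate numbers above the points, group means as lines and SD as bars (KO n = 5, WT n = 3). For Prg4 and Muc16 all KO points lie below all WT points, and for the other 8 genes the groups overlap.

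Over these 8 markers, 6 had a higher and 2 a lower mean in KO. Adjusted p-values in limma ran from 0.599 to 0.992, none had an unadjusted p under 0.05, and none was without overlap in the fit of all 8 arrays without a block. Their median log2 difference was 0.15, against -0.03 over all tested genes. The 95% intervals reached down to -0.57 and up to 0.83. A missed threshold does not show that KO and WT levels of these markers were equal.

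**Figure D3:**
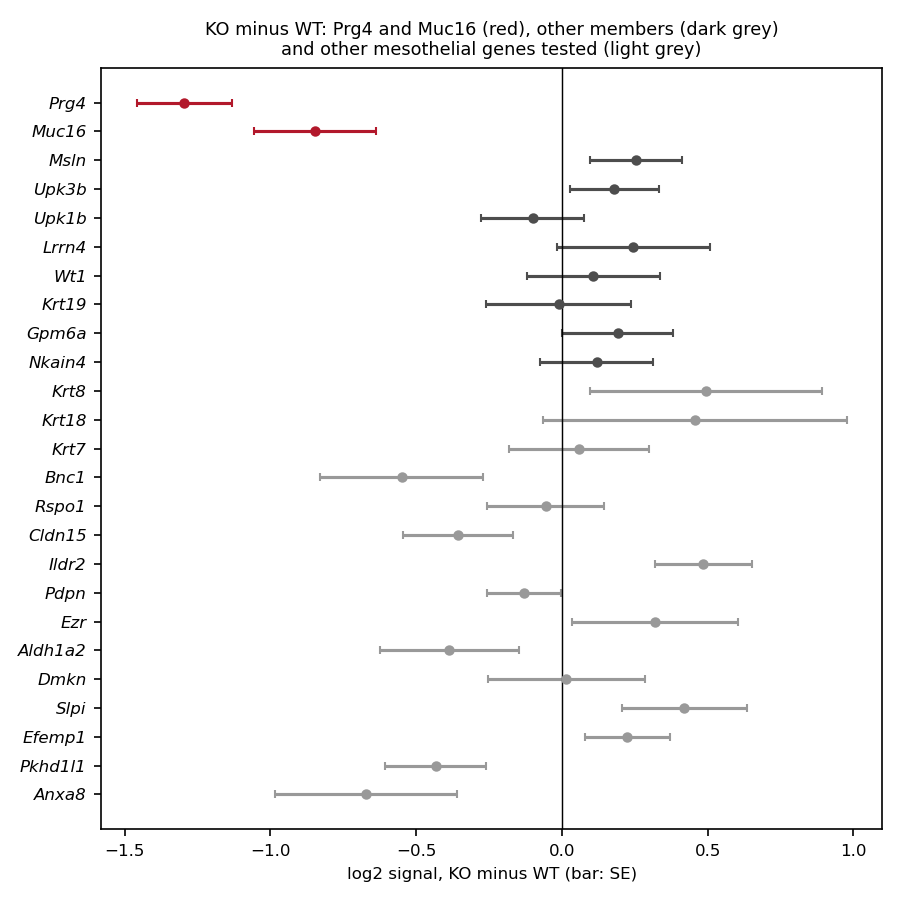
Log2 signal in KO minus WT (horizontal axis, points with SE as bars) for Prg4 and Muc16 in red, the other 8 markers in dark grey and 15 further mesothelial genes in light grey. Prg4 (-1.30) and Muc16 (-0.85) lie left of every other gene shown. Podxl (-0.89), listed with the mucins, is not shown. The others fall on both sides of 0, from Anxa8 (-0.67), named after its value was seen, to Krt8 (0.49).

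Whether Prg4 and Muc16 moved apart from the other markers can be read array by array. Taken relative to the WT mean of each gene, their average was -1.11, -1.13, -1.10, -1.16 and -0.86 in KO 1 to KO 5, against 0.38, 0.03 and -0.40 in WT 1 to WT 3. The average of the other 8 on the same scale was -0.03, 0.35, 0.21, -0.03 and 0.12 in KO 1 to KO 5, against -0.10, 0.17 and -0.08 in WT 1 to WT 3. The first set of averages separates the genotypes and the second does not. Their difference, pair minus other markers, ran from -1.47 to -0.98 in KO and from -0.32 to 0.47 in WT, with no overlap. The 2 genes thus lay apart from the other 8 in every KO array, by -1.20 ± 0.196 (SD, n = 5) on the log2 scale, as a description, since the pair was chosen on this difference. Without any 1 array the KO minus WT value of this difference stayed between -1.36 and -0.96.

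KO 2 was singled out after its values were seen. It held the highest signal of all 8 arrays for 6 of the other 8 markers (Msln, Upk3b, Lrrn4, Wt1, Gpm6a and Nkain4) and the lowest signal of all arrays for Prg4. For Muc16 it was not the lowest KO array, with 4.56 in KO 2 and 4.25 in KO 1.

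**Figure D4:**
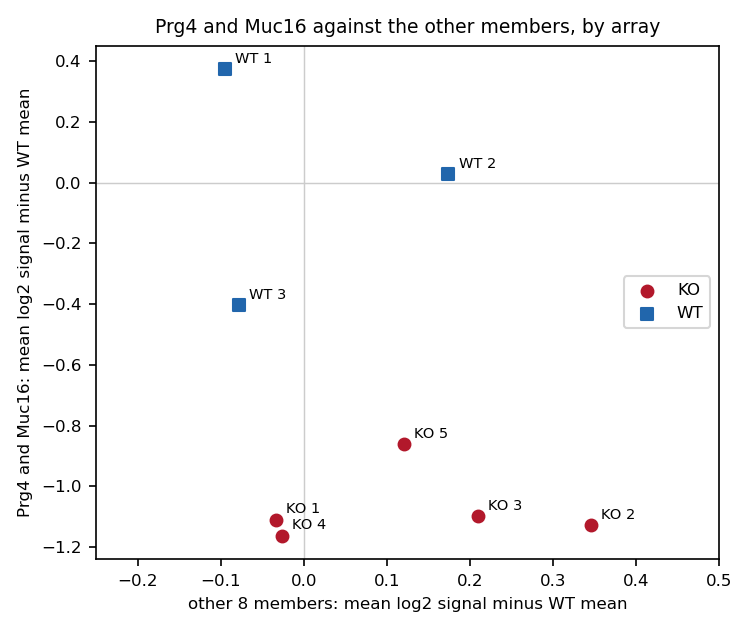
For each array, the mean log2 signal of Prg4 and Muc16 (vertical axis) against that of the other 8 markers (horizontal axis), both minus the WT mean, with KO as red circles and WT as blue squares. KO arrays lie between -1.16 and -0.86 on the vertical axis and WT arrays between -0.40 and 0.38, while on the horizontal axis the genotypes overlap.

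How the 10 genes varied between mice of the same genotype does not use the KO and WT difference. The deviations of the arrays from their genotype means were correlated for all 45 pairs of genes over 8 arrays, with exact permutation within genotype (720 arrangements, two-sided). No pair passed after adjustment over the 45. The smallest p that 720 arrangements can give is 0.00139, so a pair standing alone could not go below an adjusted p of 0.0625. At an unadjusted p under 0.05 there was 1 pair by Pearson r and 2 by Spearman rho. The pair under it by both was Msln and Gpm6a, with Pearson r = 0.64 (exact permutation p = 0.00278, adjusted p = 0.125) and Spearman rho = 0.88 (exact permutation p = 0.00694, adjusted p = 0.312), and r was 0.90 without KO 2 and KO 5. By Spearman alone it was joined by Upk3b and Wt1 (rho = 0.71, exact permutation p = 0.0472, adjusted p = 0.795).

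For Prg4 and Muc16 themselves Pearson r was 0.61 (exact permutation p = 0.299, adjusted p = 0.790) and Spearman rho 0.57 (exact permutation p = 0.224, adjusted p = 0.795). Pearson r was 0.25 without KO 5 and WT 3, the arrays farthest from the median of Prg4. It was 0.13 without WT 3 alone, 0.42 without WT 1 alone, 0.56 without KO 5 alone and 0.81 without KO 1 alone. Leaving out WT 3 lowered it most. With the 8 other markers, r of Prg4 ran from -0.61 (Wt1) to 0.51 (Gpm6a), with 2 values above 0. For Muc16 the range was -0.49 (Wt1) to 0.75 (Gpm6a), with 5 above 0. Among the other 8 markers, 19 of 28 pairs were above 0, with a median of 0.23.

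**Figure D5:**
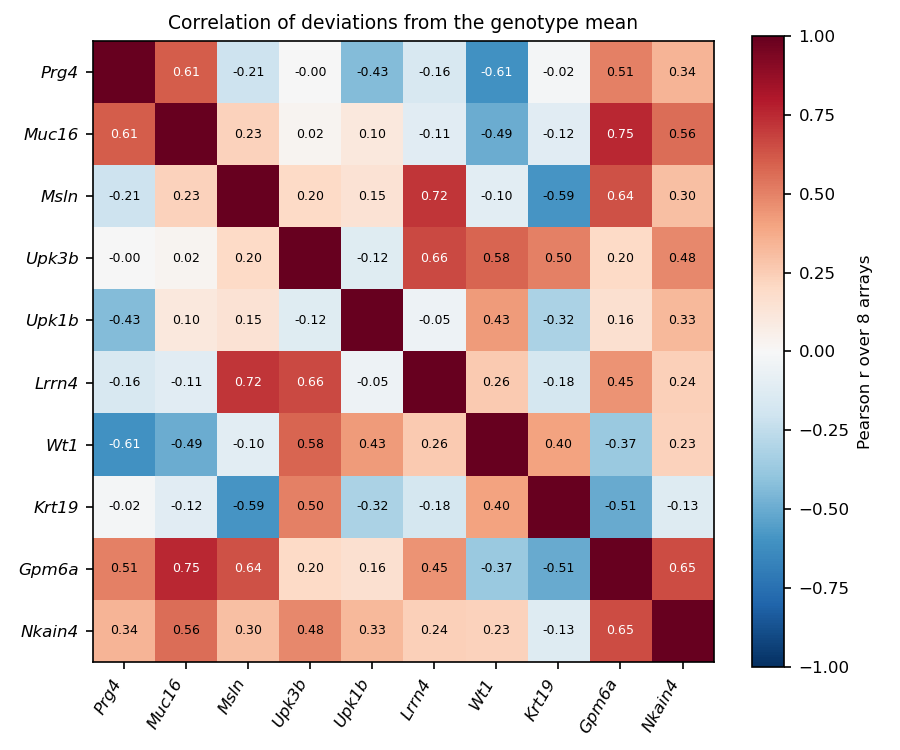
Pearson r between each pair of the 10 genes, computed over 8 arrays from deviations from the genotype mean, on a colour scale from -1 (blue) to 1 (red). Prg4 and Muc16 correlate at 0.61 with each other and between -0.61 and 0.75 with the other markers, and no pair passed after adjustment.

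Genes with the most similar array pattern were sought by the same within-genotype correlation over 8 arrays among 10346 protein-coding genes. For Prg4 they were Luzp1 (r = 0.97), Cfap36 (0.97), Lrrc75a (0.95), Fam229b (0.95) and Epg5 (0.95), whose own log2 KO minus WT differences lay between -0.15 and 0.22. For Muc16 they were Chic2 (0.98), Plekho2 (0.97), Ldha (0.96), Nemf (0.96) and Ppp2r2d (0.95), with differences from -0.15 to 0.32. Msln was most like Dgat1 (0.98), Tlcd5 (0.96), Cntrob (0.96), Slc25a32 (0.95) and Pex11g (0.95), with differences from -0.66 to 0.15. None of the 10 mesothelial surface genes is among these 15. High values are easily reached over 8 arrays and so many genes, and they are given as a description.

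Further mesothelial genes, from a list that leaves out the 10, were split. All 18 were measured and 15 tested, since Crb2, Calb2 and Tmem151a were below the filter. Of the 15, 8 had a higher and 7 a lower mean in KO, none passed in limma, and at an unadjusted p under 0.05 there was 1 in each direction. The median log2 difference was 0.02, beside -0.03 over all tested genes. The exceptions, named after their values were seen, were Ildr2, an immunoglobulin-like membrane protein (0.48, KO 5.32 to 5.80 and WT 4.80 to 5.29), and Pkhd1l1, a fibrocystin relative (-0.43, KO 5.88 to 6.61 and WT 6.59 to 6.79).

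Keratins 8 and 18, the keratin pair of simple epithelia, had log2 differences of 0.49 (SE 0.398) for Krt8 and 0.46 (SE 0.521) for Krt18. Both were highest in KO 4, at 6.84 and 7.51, the array with the epididymal transcripts, and that tissue's part in them was not tested. Krt7 differed by 0.06, and Bnc1, which encodes the zinc finger protein basonuclin, by -0.55 (SE 0.280, adjusted p = 0.525 in limma). Of 7 listed keratins 6 were measured and 3 tested, all 3 higher in KO and none called.

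The mucins and sialomucins other than Muc16 were mostly near background. Of 12 listed, 11 were measured and 3 passed the filter (Muc2, Podxl and Emcn), all 3 lower in KO and none called. Podxl encodes podocalyxin, a heavily glycosylated membrane protein of podocytes, vessel lining and mesothelium. It read 6.17, 6.15, 6.19, 6.14 and 6.85 in KO 1 to KO 5, against 7.04, 7.14 and 7.38 in WT 1 to WT 3, with no overlap. The log2 difference was -0.89 (SE 0.185, adjusted p = 0.172 in limma). Emcn, a sialomucin of the vessel lining, differed by -0.28, and Muc2, a gel-forming gut mucin, by -0.43.

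Podxl and Emcn are also endothelial genes, and markers of the vessel lining are given beside them. Their list of 6, all tested, had 5 lower and 1 higher in KO, none called, with a median log2 difference of -0.47. At an unadjusted p under 0.05 in limma there were 4 lower and 1 higher, beside 6.46% lower and 4.04% higher over all tested genes. Its mean was 7.76 to 8.10 in KO and 8.03 to 8.43 in WT. The vascular endothelial growth factor receptor gene Kdr differed by -0.69, the junction genes Pecam1 and Cdh5 by -0.64 and -0.44, and the angiopoietin receptor gene Tek by -0.46. The rest of the list, named after their values were seen, were Cldn5, which was higher in KO (0.61), and Egfl7 (-0.48). KO 5 was the highest KO array for Podxl and for this list. The part of endothelial cells in the Podxl value was not tested.

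Genes for proteins that bind PRG4, MUC16 or hyaluronan came next. Of 8 measured, 4 were tested, 3 higher and 1 lower in KO and none called. Cd44, a hyaluronan receptor that also binds PRG4, differed by 0.40 (SE 0.215). Tlr4, a pattern receptor reported to bind PRG4, differed by -0.36 (SE 0.161, adjusted p = 0.473 in limma), and the galectin genes Lgals1 and Lgals3 by 0.22 and 0.16. The hyaluronan synthases Has1, Has2 and Has3 were below the filter. Of 12 relatives of the membrane proteins above, 11 were measured and 3 tested, Gpm6b (0.47), Nkain1 (0.63) and Lrrn1 (0.33), all higher in KO and none called.

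Regulators of Prg4 known from joint tissue were also split, with 8 of 14 tested higher and 6 lower in KO, a median log2 difference of 0.03 and none called. At an unadjusted p under 0.05 in limma there was 1 higher and 1 lower. The higher was Creb5, a transcription factor needed for Prg4 expression in superficial cartilage, at 0.35 (SE 0.148, adjusted p = 0.442 in limma). The lower was Tgfbr1, at -0.47 (SE 0.169, adjusted p = 0.371 in limma). Yap1 differed by -0.25 (SE 0.143, adjusted p = 0.563 in limma). Its KO arrays lay only just below its WT arrays, at 7.208 to 7.677 in KO and 7.693 to 7.724 in WT. Of all tested genes, 5.54% were lower in KO without overlap. Tgfbr1 and Yap1 were named after their values were seen. Foxo1 differed by 0.30, Foxo3 by -0.01 and the growth factor gene Tgfb1 by 0.04.

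Other cells that can make these transcripts were read from their own lists. Prg4 is also made by the large macrophages of the peritoneal cavity. Of 9 genes of these macrophages 7 were tested, 4 higher and 3 lower in KO, with none called and 1 lower at an unadjusted p under 0.05, and the list mean was 4.09 to 4.39 in KO and 4.11 to 4.25 in WT. Gata6, their defining transcription factor and also present in other cells, differed by -0.18, Timd4 by 0.15, Alox15 by 0.21 and Selp by 0.29. Icam2, an adhesion gene of that list also used by vessel lining and named after its values were seen, read 3.67 to 4.17 in KO and 4.32 to 4.55 in WT, with no overlap. Its log2 difference was -0.48 (SE 0.143, adjusted p = 0.313 in limma), on the same side as Prg4. Selp, on the other side, was also without overlap, at 4.274 to 4.777 in KO and 4.164 to 4.265 in WT. The part of these macrophages in the Prg4 value was not tested. Serpinb2, also named after its values were seen, was below the filter, at or below 2.24 in KO and 2.15 in WT. General macrophage genes had 4 of 11 higher and 7 lower in KO, none called, with Adgre1 at 0.13, Cd68 at -0.003, Csf1r at 0.27 and Mrc1 at -0.15.

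Interstitial progenitors and fibroblasts lie just beneath the mesothelium. Of the progenitor genes, 5 of 7 tested were higher and 2 lower in KO, none called, with Dpp4 at 0.12, Pi16 at 0.23, Cd55 at -0.11 and the secreted guidance factor gene Sema3c at 0.61 (SE 0.137, adjusted p = 0.203 in limma). Sema3c was higher in every KO array (7.52 to 7.92) than in any WT array (6.95 to 7.28). The mean of the 8 measured progenitor genes was 5.78 to 5.86 in KO and 5.63 to 5.69 in WT, with no overlap. Without Wnt2, which was below the filter, it was 6.22 to 6.33 in KO and 6.14 to 6.17 in WT. The median log2 difference of the 7 tested was 0.18, against -0.03 over all tested genes. Taken singly, only Sema3c of these 7 was without overlap, beside 8.53% of all tested genes. Cd55 and Anxa3 (-0.27, named after its values were seen) were lower in KO, so the list did not move as a whole. The fibroblast list had 4 higher and 4 lower, none called, with Pdgfra at -0.09, Col1a1 at 0.20, Col1a2 at 0.09 and Dcn at -0.19. Of the adipocyte genes 2 were higher and 6 lower, none called, with a median of -0.10. None of these lists held a called gene in either direction, which is also the background over all tested genes.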

How the data were processed

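RNA of 5 KO and 3 WT fat pads was hybridised to 1 array per mouse. The deposited values are log2 signals per probe set. The submitters' processing notes list RMA and oligo, and the series design text names Expression Console. Which of them made the values, with what version and genome build, is unstated. RMA evens out the arrays' distributions and compresses differences of dim probe sets, and arrays carry no counts, so that their number limits the precision.

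Gene names come from the platform's own annotation, parts of which may be outdated. Of 41345 probe sets, 23521 had 1 gene symbol, 1814 several and 16010 none listed, and 23328 were matched by Entrez identifier to RefSeq genes of GRCm38.p6, used for symbols and chromosomes. For 1082 genes with more than 1 probe set, the brightest on average over 8 arrays was kept. The brighter part of the genes, split at their median level (3.61), was tested with limma 3.58.1 in R 4.3.3 (lmFit, eBayes, two-sided), KO minus WT, with the Benjamini-Hochberg adjustment over all 11090 genes. Correlations and figures used scipy 1.17.1 and matplotlib 3.10.9 in Python 3.11.15. The fit was tested on simulated data.

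The members and lists were chosen with earlier results of these data known. All 10 members are named, and of each list the first 4 tested genes in listed order (the first 2 listed, where none passed the filter), with any other list gene given with values said to be named after its values were seen. The most alike genes are the 5 with the highest r for Prg4, Muc16 and Msln. Replicate numbers 1 to 3 occur in both genotypes, with no statement of what they mark. Deviations of same-numbered arrays correlated at 0.133, 0.103 and 0.192 over the tested genes, so by the rule used (every value over 0.1) they count as pairs in an alternative fit. Nothing says more of how mice were handled, and p-values measure the spread between these arrays. Alternatives were the replicate block, centring, other level filters, averaging the probe sets of each gene, array weights, a trended prior and leaving out arrays.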

Additional observations from a re-analysis of the deposited data

Results flagged for a closer look

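Of 61 genes examined (the 10 members, the named list genes and Abhd15), 7 had 1 KO array far from the other 4 by Dixon's gap test at its 95% critical value, where chance gives about 5% of groups. None of the 10 mesothelial surface genes was among them. KO 5 stood out for Podxl (6.85), Cdh5 (10.49), Tek (7.79) and, at the low end, Adipoq (8.57). KO 4 was the highest KO array for Lcn5 (8.56) and Tnp1 (3.84), genes of the epididymis and of sperm. KO 3 was low for Tgfb1 (6.80).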

How the results depend on the processing

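Prg4 stayed lower in KO under all 16 alternatives (-1.46 to -1.16 on the log2 scale), as did Muc16 (-1.09 to -0.56) and the difference between that pair and the other 8 markers (-1.36 to -0.96). Other level filters and the trended prior leave a gene's difference as it is, and so does averaging for members of 1 probe set. Centring cannot change the difference between the pair and the other markers. Those settings are therefore no check of these values, and the pair was chosen on its low KO signals. The fit without WT 1 and KO 4, and the repeats of the Prg4 and Muc16 correlation, were chosen after seeing the data. That correlation ran from 0.13 (without WT 3) to 0.81 and passed under none of its 9 settings. No one of the other 8 markers had an adjusted p under 0.05 under any alternative. Small differences changed sign: Wt1 with array weights (-0.036), without WT 1 (-0.19) and without WT 1 and KO 4 (-0.19), and Krt19 with centred arrays (0.022). Leaving out 1 array at a time moved Krt19 between -0.17 and 0.17, Wt1 between -0.19 and 0.26, Upk1b between -0.19 and 0.0039, Gpm6a between -0.064 and 0.35 and Nkain4 between -0.075 and 0.29. It moved Lrrn4 between 0.10 and 0.42, Upk3b between 0.10 and 0.27 and Msln between 0.16 and 0.33, always above 0. Without WT 1 and KO 4 together, Msln differed by 0.34, Upk3b by 0.18, Lrrn4 by 0.28, Gpm6a by 0.38 and Nkain4 by 0.15. In that fit Upk1b differed by -0.21 and Krt19 by -0.02. Genes with an adjusted p under 0.05 numbered 2 with the replicate block, 40 with array weights, 3 with the trended, robust prior and 0 to 5 when 1 array was left out (5 without KO 5). Genes with an unadjusted p under 0.05 numbered 1997 with the block, 1871 with no filter, 1873 with array weights, 732 without WT 1 and KO 4, and 745 (without WT 1) to 1596 when 1 array was left out. Genes without overlap numbered 1458 with no filter, 2069 without WT 1 and KO 4, and 1101 to 1626 when 1 array was left out, fewer arrays making separation easier. The replicate block brought no marker to an adjusted p under 0.05, but moved Lrrn4 to 0.57 (unadjusted p = 0.00364) and Msln to 0.38 (unadjusted p = 0.0400). Array weights, with KO 5 kept at the lowest weight (0.335), moved Msln to 0.37 (unadjusted p = 0.0230, adjusted p = 0.226 in limma). The causes of these shifts were not tested.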
